A study of Homo sapiens with 14 samples.

Results

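KLF4 peaks were examined at 8 genes that write, copy, oxidize or remove DNA methylation: DNMT1, UHRF1, DNMT3A, DNMT3B, TET1, TET2, TET3 and TDG. They were chosen by function and not by a measured value. These are 8 of the 20033 protein-coding genes of GENCODE 44. A KLF4 peak was assigned to a gene if its summit lay from 10 kb upstream of the gene's most upstream transcription start site (TSS) to 2 kb past the gene end. The data were KLF4 ChIP-seq peak lists from BEAS-2B, an immortalized line of human bronchial epithelial cells, with 1 library per condition. WT control cells carried Nrf2 and received no arsenic, and WT As3+ cells received 1 µM trivalent arsenic (As3+) for 6 h. Nrf2 KO control cells lacked Nrf2 and received no arsenic, and Nrf2 KO As3+ cells received the same dose for the same time. The knockout was made with CRISPR-Cas9 guides to NFE2L2, the gene of Nrf2, and colonies without detectable Nrf2 protein were taken as knockouts. The paper designated colonies that still expressed Nrf2 as wild type. The number of colonies behind the WT or the Nrf2 KO libraries is not given in the sources used here. A trait of a single colony, on either side, and the loss of Nrf2 thus cannot be told apart. With 1 library per condition no difference between conditions could be tested. Each value below describes a library.

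In mammals, methyl groups are placed on cytosine, mostly where it is followed by guanine (CpG). DNMT3A and DNMT3B place them on unmethylated DNA, and DNMT1 copies them to the new strand after replication, guided by UHRF1, which recognizes hemimethylated CpG. TET1, TET2 and TET3 oxidize the methyl group, and TDG cuts out the most oxidized forms, after which base excision repair restores cytosine. KLF4 is a zinc finger transcription factor that binds GC-rich words such as CCACACCC and CCACGCCC, and it is one of the factors used to reprogram cells to pluripotency.

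The 4 lists differed greatly in length. They held 751 peaks in WT control, 29870 in WT As3+, 76545 in Nrf2 KO control and 130 in Nrf2 KO As3+ cells. Each peak carries a fold enrichment, the height of the summit as a ratio to the background around it, and a −log10 p and −log10 q for that enrichment. The number of fragments over each summit and the background were worked out from the fold and the p, taking p as a Poisson upper tail. The lowest background over any listed summit was 1.90 fragments in WT control, 0.757 in WT As3+, 0.491 in Nrf2 KO control and 1.64 in Nrf2 KO As3+ cells. The short lists thus had the higher backgrounds at their listed summits. How far this difference shaped the lists was not tested. No read totals were used, so local background and library depth were not told apart. The authors also drew tags at random to equalize samples, and whether they did so before peaks were called is not given in the sources used here. Its part in the list lengths was not tested. Intervals below cover counting error only. Peak lists hold no expression values, so neither the airway origin of the cells, the loss of Nrf2 nor the labels of the Nrf2 KO libraries could be checked in them, and the contrasts below rest on the labels. At NFE2L2 the lists held 0 peaks in WT control, 3 in WT As3+, 5 in Nrf2 KO control and 0 in Nrf2 KO As3+ cells, which is no check of the edit. A listed peak marks fragments enriched in the KLF4 ChIP of 1 library, and whether KLF4 bound there was not checked. Neither the RNA of a gene nor its DNA methylation was measured in these lists.

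All 8 genes had a KLF4 peak in WT As3+ and in Nrf2 KO control cells, and none had one in WT control or Nrf2 KO As3+ cells. For WT control the count was 0 of 8, where 2.51% of all protein-coding genes had a peak in the same kind of window. For WT As3+ it was 8 of 8, with 66.5% of all genes. For Nrf2 KO control it was 8 of 8, with 81.0% of all genes, and for Nrf2 KO As3+ it was 0 of 8, with 0.439%. A peak was thus also found at most other genes in both long lists and at few other genes in the short ones.

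Set as contrasts, the comparison of As3+ with control in WT cells gave a peak in WT As3+ and none in WT control at 8 of 8 genes, against 64.0% of all genes. In Nrf2 KO cells the order of the libraries was the opposite. A peak in Nrf2 KO control and none in Nrf2 KO As3+ was found at 8 of 8 genes, against 80.6% of all genes. Between the As3+ libraries, a peak in WT and none in Nrf2 KO was found at 8 of 8 genes, against 66.1%. Between WT As3+ and Nrf2 KO control, both had a peak at 8 of 8 genes, against 64.0%. These contrasts share libraries and are not independent of each other.

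The windows of the 8 genes held 0 peaks in WT control, 18 in WT As3+, 49 in Nrf2 KO control and 0 in Nrf2 KO As3+ cells. These are long genes. Their median window was 118 kb, against 39.5 kb for all protein-coding genes. Per 100 kb of window, the 8 genes held 2.17 peaks in WT As3+ and all protein-coding genes 1.93. For Nrf2 KO control the densities were 5.91 and 4.50 per 100 kb. Peak density was thus slightly above that of all genes in both long lists, with no test of the difference.

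**Figure D1:**
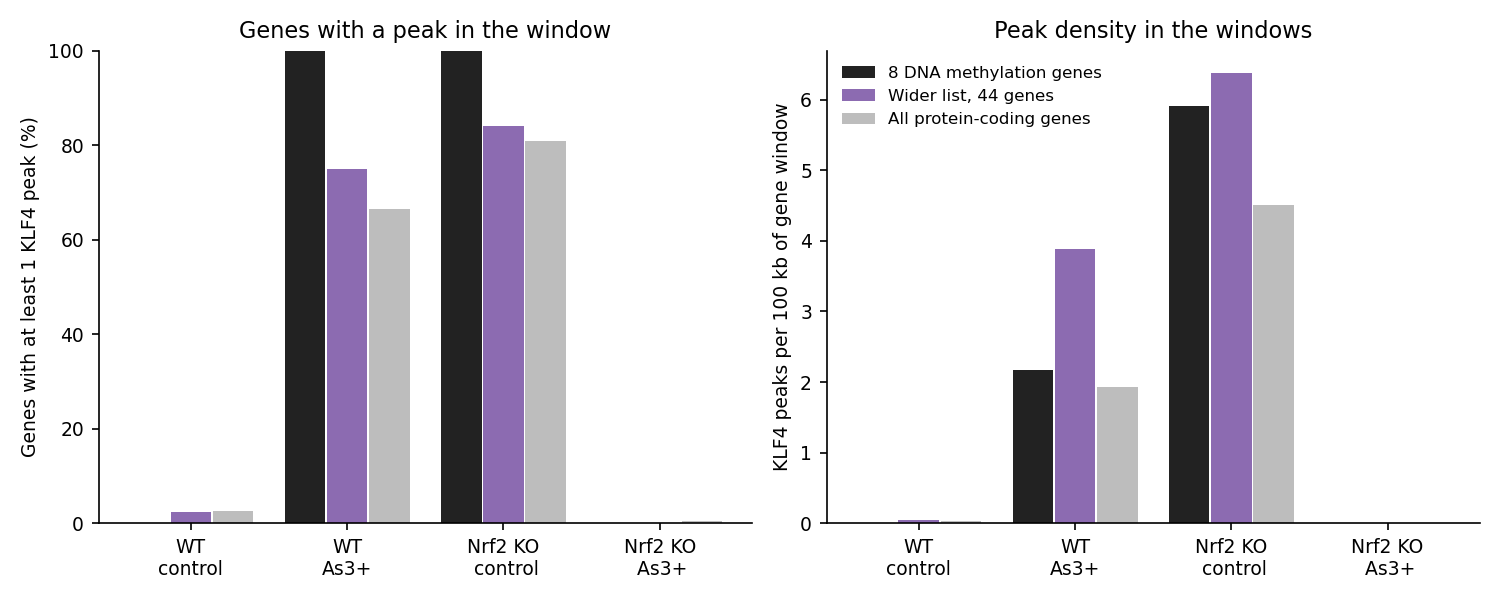
The left panel shows the percentage of genes with at least 1 KLF4 peak and the right panel the KLF4 peaks per 100 kb of window, for the 8 genes (black), 44 other genes of DNA methylation (purple) and all 20033 protein-coding genes (grey). The black bars reach 8 of 8 genes in WT As3+ and Nrf2 KO control and are at 0 in the other libraries, while the densities of 2.17 and 5.91 lie near the grey bars at 1.93 and 4.50.

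Most peaks of WT As3+ cells at the 8 genes lay at promoters. Of the 18 peaks, 14 had their summit within 1 kb of an annotated TSS of the gene, and in Nrf2 KO control cells 20 of 49 did. Over the whole lists, 14716 of 29870 WT As3+ peaks lay within 1 kb of a protein-coding TSS. In Nrf2 KO control 24292 of 76545 did, so the lower promoter share of that list is not particular to these genes. These whole-list counts take a TSS of any protein-coding gene and include peaks outside all gene windows. They are thus not the same measure as the counts at the 8 genes, which take only the gene's own TSS. All 8 genes had such a promoter peak in WT As3+, against 54.4% of protein-coding genes, and all 8 had one in Nrf2 KO control, against 69.0%. With the canonical TSS alone the count was 7 of 8 in WT As3+, against 49.3% of genes, and 7 of 8 in Nrf2 KO control, against 63.6%. DNMT3A was the exception in both lists. A stricter view kept peaks with a −log10 q of at least 5. In WT As3+, 5 genes then had a peak (DNMT1, UHRF1, TET1, TET3 and TDG), against 38.2% of all genes. Of the 8 genes, 7 did in Nrf2 KO control, all but TET2, against 51.0%.

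**Figure D2:**
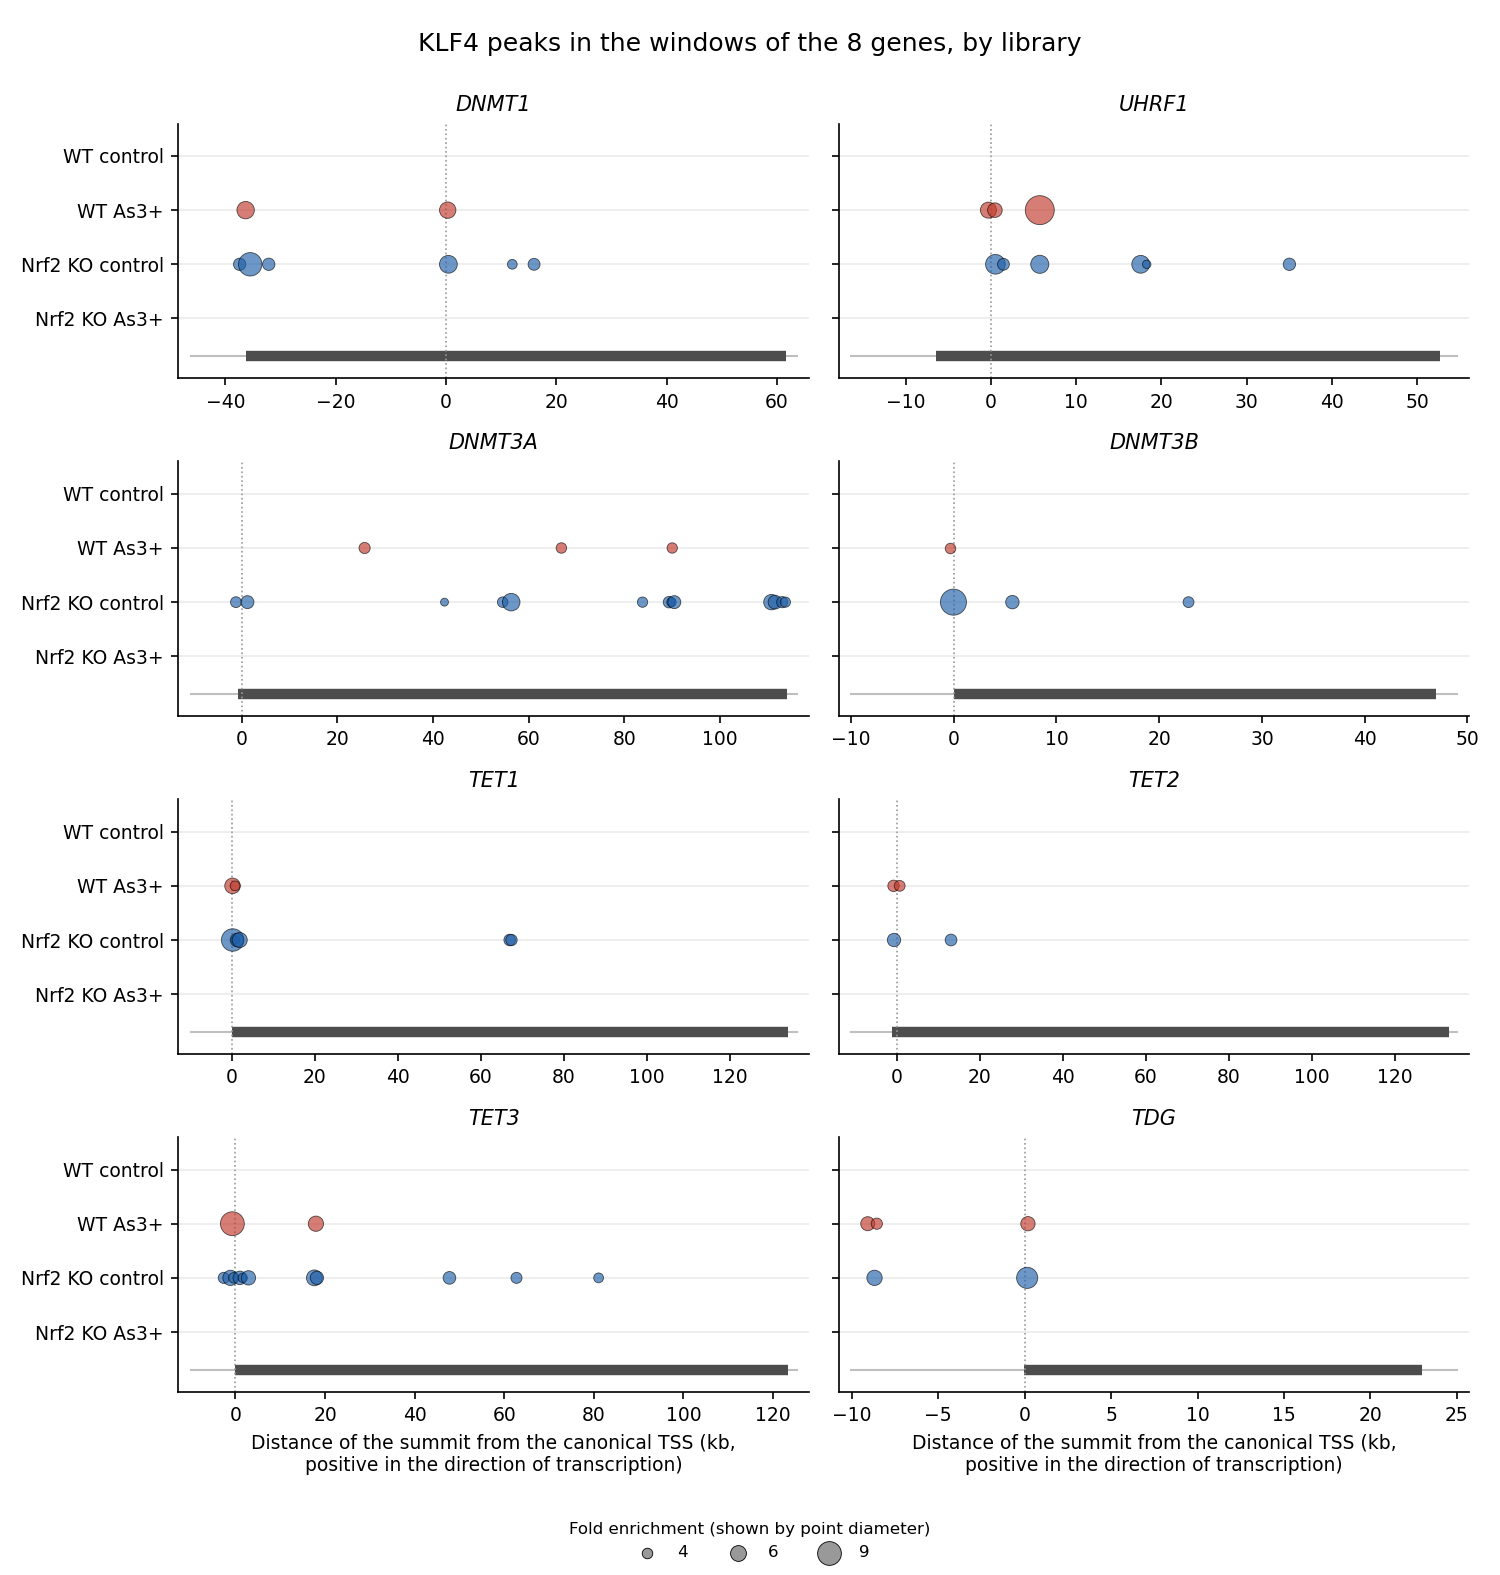
Each panel shows 1 gene, with the summits of its KLF4 peaks by distance from the canonical TSS in kb (positive in the direction of transcription), 1 row per library, and point diameter for fold enrichment. The dark bar is the gene and the thin grey line the window. The rows of WT control and Nrf2 KO As3+ are empty in all 8 panels, 14 of the 18 WT As3+ peaks lie within 1 kb of a TSS of the gene, and the 49 Nrf2 KO control peaks spread further into the gene bodies.

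The maintenance pair, DNMT1 and UHRF1, held the single highest peak of WT As3+ cells at the 8 genes. DNMT1, the methyltransferase that copies methylation at replication, lies on the minus strand of chromosome 19 (chr19:10133342-10231286, GRCh38). It had 0 peaks in WT control, 2 in WT As3+, 6 in Nrf2 KO control and 0 in Nrf2 KO As3+ cells. The WT As3+ peak at chr19:10194274-10194901 had its summit in intron 1, 311 bp from the canonical start, and reached a fold of 6.22 and 16 fragments (95% interval 9.15 to 26.0). The Nrf2 KO control peak over it had a fold of 6.75 and 13 fragments (6.92 to 22.2). These intervals overlapped, and the difference was not tested. GENCODE places the most upstream start of DNMT1 a further 36333 bp away, and lists 43 distinct starts in all. The other WT As3+ peak (chr19:10231111-10231399, fold 6.61, 13 fragments) lay 12 bp from that far start but also 33 bp from the TSS of S1PR2, a receptor for sphingosine 1-phosphate. A peak there cannot be given to DNMT1 alone. A wider Nrf2 KO control peak of 1443 bp covered the same place with a fold of 8.89, its summit 55 bp from MIR4322. The other 4 Nrf2 KO control peaks of DNMT1 held 5 or 6 fragments each. Of these, 1 lay nearer to the TSS of S1PR2 (1055 bp) and another nearer to that of MIR4322 (3305 bp).

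UHRF1, which brings DNMT1 to hemimethylated CpG, lies on the plus strand of chromosome 19 (chr19:4903080-4962154). It had 0 peaks in WT control, 3 in WT As3+, 6 in Nrf2 KO control and 0 in Nrf2 KO As3+ cells. The highest peak of all 8 genes in WT As3+ was in intron 2 of UHRF1 (chr19:4914813-4915562), 5734 bp downstream of the canonical TSS. It had a fold of 11.0 and 35 fragments (24.4 to 48.7), and ranked 226 of 29870 peaks by −log10 p. A Nrf2 KO control peak lay there with its summit on the same base, a fold of 6.87 and 16 fragments (9.15 to 26.0), at rank 3621 of 76545. The remaining WT As3+ peaks flanked the canonical TSS, 294 bp upstream (fold 6.09, 14 fragments) and 469 bp downstream (fold 5.54, 12 fragments). A single Nrf2 KO control peak of 834 bp and fold 7.47 touched both. Further into the gene, Nrf2 KO control had 3 more intronic peaks, of which the one in intron 2 at 17569 bp from the TSS reached a fold of 6.77 with 10 fragments. No WT As3+ peak overlapped these, and the TSS of MIR4747 was nearer to all 3 than any TSS of UHRF1. The nearest WT control peak to the UHRF1 window lay 22.9 kb outside it (chr19:4870077-4870352, fold 6.69, 29 fragments). For the other 7 genes the nearest WT control peak was at least 153 kb away.

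The sequence around the 3 WT As3+ summits of UHRF1 is shown because the gene holds both the highest peak and a promoter peak with CG runs. Sequences are of GRCh38, with capitals for CCACACCC, CCACGCCC, CCCCACCC and CCCCGCCC (the wider KLF words), the CG run CGCGCG, the AP-1 words TGAGTCA and TGACTCA, and the antioxidant response element core TGACNNNGC, each searched on both strands.
UHRF1 intron 2, chr19:4915135-4915334, plus strand: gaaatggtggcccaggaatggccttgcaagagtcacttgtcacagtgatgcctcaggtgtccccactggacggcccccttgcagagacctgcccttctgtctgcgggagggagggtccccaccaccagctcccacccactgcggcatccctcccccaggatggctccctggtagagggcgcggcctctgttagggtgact
UHRF1 upstream, chr19:4909107-4909306, plus strand: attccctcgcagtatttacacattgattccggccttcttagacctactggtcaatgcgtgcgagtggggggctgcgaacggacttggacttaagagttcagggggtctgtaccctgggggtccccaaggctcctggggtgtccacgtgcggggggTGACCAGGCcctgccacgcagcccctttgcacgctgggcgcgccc
UHRF1 intron 1, chr19:4909870-4910069, plus strand: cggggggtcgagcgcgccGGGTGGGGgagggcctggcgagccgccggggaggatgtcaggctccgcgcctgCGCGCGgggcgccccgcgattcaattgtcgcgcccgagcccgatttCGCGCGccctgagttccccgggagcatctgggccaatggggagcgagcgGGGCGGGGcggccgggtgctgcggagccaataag
The window of the highest peak holds none of these words. The upstream window holds 1 antioxidant response element core, and the intron 1 window, beside a further RefSeq start, holds 2 CG runs and 2 of the wider KLF words.

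The de novo methyltransferases differed from each other in where their peaks lay. DNMT3A (chr2:25227855-25342590, minus strand) had 0 peaks in WT control, 3 in WT As3+, 13 in Nrf2 KO control and 0 in Nrf2 KO As3+ cells. It was the only 1 of the 8 genes with no peak within 1 kb of its canonical TSS in either long list. Its 3 WT As3+ peaks were weak. They lay in intron 1 (chr2:25316146-25316345, fold 4.24, 7 fragments), coding exon 6 (chr2:25274886-25275135, fold 3.98, 6 fragments) and intron 6 (chr2:25251698-25252194, fold 3.94, 9 fragments), and the highest −log10 q among them was 2.56. The intron 1 peak lay nearer to the TSS of MIR1301, at 12521 bp, than to any TSS of DNMT3A, at 25725 bp. The intron 6 peak was 254 bp from an internal TSS. An internal promoter of DNMT3A is known to give RNAs for its short isoform, DNMT3A2, known from embryonic stem cells. The gene has 15 distinct annotated starts, and which of them give this isoform was not examined here. Nrf2 KO control had 3 peaks around the internal start next to the intron 6 peak, with folds of 3.56 to 4.93. Of these, 1 overlapped the WT As3+ peak. Another 2 Nrf2 KO control peaks lay outside the 1 kb on either side of the canonical TSS, at −1174 bp and 1221 bp, and 4 lay in the 3' UTR exon, number 23, with folds of 3.87 to 5.87. The highest was in intron 3 (chr2:25285375-25285665, fold 6.67, 9 fragments).

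The DNMT3A intron 1 window is shown as the only WT As3+ window of the 8 genes with CCACACCC or CCACGCCC, and 250 bases before an internal RefSeq start (RefSeq promoter table, GRCh38.p14) as a stretch of the internal promoter that a Nrf2 KO control peak overlapped. The WT As3+ peak in intron 6 did not reach this stretch. It did overlap another internal RefSeq promoter (chr2:25252132-25252381), as did a Nrf2 KO control peak.
DNMT3A intron 1, chr2:25316100-25316299, plus strand: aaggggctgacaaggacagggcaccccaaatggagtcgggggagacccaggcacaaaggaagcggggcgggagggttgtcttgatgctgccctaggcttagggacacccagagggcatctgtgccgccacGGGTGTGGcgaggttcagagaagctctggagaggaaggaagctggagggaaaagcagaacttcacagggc
DNMT3A internal promoter, chr2:25252316-25252565, minus strand: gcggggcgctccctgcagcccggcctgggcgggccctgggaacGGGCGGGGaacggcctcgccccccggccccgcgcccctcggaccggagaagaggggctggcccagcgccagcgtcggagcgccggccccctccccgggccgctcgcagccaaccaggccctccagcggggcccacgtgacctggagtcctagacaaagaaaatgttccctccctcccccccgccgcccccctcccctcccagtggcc
The first holds GGGTGTGG, the reverse complement of CCACACCC, and the second 1 copy of CCCCGCCC on the other strand.

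DNMT3B (chr20:32762385-32809359, plus strand), known for methylating pericentromeric repeats, had 0 peaks in WT control, 1 in WT As3+, 3 in Nrf2 KO control and 0 in Nrf2 KO As3+ cells. The WT As3+ peak (chr20:32761740-32762330) had its summit 321 bp before the TSS. Its fold was 4.00, from 13 fragments (6.92 to 22.2). At the same promoter Nrf2 KO control had its highest peak at any of the 8 genes (chr20:32761933-32763558). It was 1626 bp wide, had its summit 19 bp before the TSS and reached a fold of 9.89 and 20 fragments (12.2 to 30.9), at rank 386. The fragment intervals overlapped, while the local background was 2.50 fragments in WT As3+ and 1.12 in Nrf2 KO control. The other Nrf2 KO control peaks were in introns 1 and 4, with folds of 5.10 and 4.13. The window around the WT As3+ summit is shown for comparison with UHRF1.
DNMT3B upstream, chr20:32761964-32762163, plus strand: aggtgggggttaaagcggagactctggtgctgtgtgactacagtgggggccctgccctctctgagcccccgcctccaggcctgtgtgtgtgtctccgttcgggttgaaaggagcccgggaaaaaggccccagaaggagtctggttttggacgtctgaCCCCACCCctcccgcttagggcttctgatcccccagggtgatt
It holds 1 CCCCACCC and no CG run.

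Among the TET dioxygenases, TET1 and TET3 had clear promoter peaks and TET2 had weak ones. TET1 (chr10:68560337-68694487, plus strand), a CXXC-domain enzyme that binds CpG-rich DNA, had 0 peaks in WT control, 2 in WT As3+, 6 in Nrf2 KO control and 0 in Nrf2 KO As3+ cells. The highest in each long list lay in the 5' UTR exon, number 1, with summits 118 bp and 154 bp from the TSS. The fold there was 5.91 with 14 fragments (7.65 to 23.5) in WT As3+ and 8.54 with 15 fragments (8.40 to 24.7) in Nrf2 KO control. A second pair of overlapping peaks lay in intron 1 with folds of 3.71 and 3.20. From Nrf2 KO control, 2 more peaks followed within intron 1, up to 1848 bp from the TSS, and another 2 in intron 3, 4651 bp and 5091 bp from COX20P1. The 250 bases before the TSS are shown from the RefSeq promoter table (GRCh38.p14), since the WT As3+ peak covered most of them.
TET1 promoter, chr10:68560087-68560336, plus strand: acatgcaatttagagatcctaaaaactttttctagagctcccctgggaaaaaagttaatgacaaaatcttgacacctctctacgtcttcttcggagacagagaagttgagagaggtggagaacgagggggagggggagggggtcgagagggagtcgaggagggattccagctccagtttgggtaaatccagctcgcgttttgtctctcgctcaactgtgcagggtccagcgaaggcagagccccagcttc
They hold none of the words, and their promoter entry has a GC content of 54.3%. The 200 bp around the highest TET1 summit, not shown, hold 1 antioxidant response element core in each long list.

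TET2 (chr4:105145875-105279816, plus strand), a TET enzyme without a CXXC domain, had 0 peaks in WT control, 2 in WT As3+, 2 in Nrf2 KO control and 0 in Nrf2 KO As3+ cells. The highest in each list overlapped, 728 bp and 612 bp upstream of the canonical TSS. Each held 8 fragments (3.45 to 15.8), with a fold of 4.33 in WT As3+ and 5.07 in Nrf2 KO control. None reached a −log10 q of 5 in either list. The second WT As3+ peak (fold 4.10) lay 755 bp downstream of the canonical TSS, and the second Nrf2 KO control peak (fold 4.47) 13117 bp downstream, so these did not overlap. A window of 120 bp at the WT As3+ summit is shown for its CG run.
TET2 upstream, chr4:105146088-105146207, plus strand: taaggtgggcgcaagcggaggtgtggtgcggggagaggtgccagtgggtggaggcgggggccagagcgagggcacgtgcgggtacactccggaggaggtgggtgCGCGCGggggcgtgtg

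TET3 (chr2:73984910-74108176, plus strand), the TET enzyme of the oocyte and zygote, had 0 peaks in WT control, 2 in WT As3+, 11 in Nrf2 KO control and 0 in Nrf2 KO As3+ cells. The WT As3+ peak 669 bp before the TSS (chr2:73984072-73984747) was the next highest after that of UHRF1, with a fold of 9.05 and 22 fragments (13.8 to 33.3), at rank 986. The Nrf2 KO control peak that overlapped it had a fold of 4.00 and 6 fragments (2.20 to 13.1). This was the only 1 of the shared places where the fragment intervals did not overlap, though the local background was also higher in WT As3+, at 1.54 against 0.749 fragments. The other WT As3+ peak lay in intron 2, 171 bp from an internal start, with a fold of 5.79 and 12 fragments, and Nrf2 KO control had peaks on both sides of that start with folds of 6.00 and 5.04. Around the first TSS, Nrf2 KO control had 5 further peaks between −2587 bp and 2916 bp, of which the most upstream lay 150 bp from DGUOK-AS1. The windows around both WT As3+ summits are shown.
TET3 upstream, chr2:73984141-73984340, plus strand: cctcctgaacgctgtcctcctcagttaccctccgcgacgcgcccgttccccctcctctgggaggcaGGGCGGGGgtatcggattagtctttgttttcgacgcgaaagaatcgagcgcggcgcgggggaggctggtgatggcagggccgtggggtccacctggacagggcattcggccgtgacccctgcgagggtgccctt
TET3 intron 2, chr2:74002784-74002983, plus strand: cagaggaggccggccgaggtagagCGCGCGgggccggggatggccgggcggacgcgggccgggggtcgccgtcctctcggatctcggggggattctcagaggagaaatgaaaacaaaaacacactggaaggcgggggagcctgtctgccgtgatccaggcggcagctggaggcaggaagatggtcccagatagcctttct
The first holds 1 CCCCGCCC on the other strand and the second 1 CG run.

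TDG (chr12:103965822-103988874, plus strand), the glycosylase that removes oxidized methylcytosine, was the shortest of the 8 genes and had 0 peaks in WT control, 3 in WT As3+, 2 in Nrf2 KO control and 0 in Nrf2 KO As3+ cells. It was the only 1 of the 8 with more peaks in WT As3+ than in Nrf2 KO control. At its promoter the summits were 190 bp and 146 bp from the canonical TSS. The fold was 5.44 with 17 fragments (9.90 to 27.2) in WT As3+ and 8.01 with 19 fragments (11.4 to 29.7) in Nrf2 KO control. The remaining peaks lay 8551 bp and 9074 bp upstream in WT As3+ (folds 4.28 and 5.33) and 8682 bp upstream in Nrf2 KO control (fold 5.82). All 3 were within 60 bp of a TSS of UQCC6, a neighbouring gene for assembly of a mitochondrial respiratory complex, and the window rule alone gives them to TDG.

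The share of WT As3+ peaks at the 8 genes that Nrf2 KO control cells also had depended on the rule for overlap. Of the 18 WT As3+ peaks, 14 overlapped a Nrf2 KO control peak by at least 1 bp (77.8%, 95% interval 52.4 to 93.6), against 55.6% of the 29870 peaks of the whole list. Of the 49 Nrf2 KO control peaks, 13 overlapped a WT As3+ peak (26.5%, 14.9 to 41.1), against 21.7% of the whole list. Both whole-list shares lie within these intervals. With a reciprocal overlap of at least 50% the share of WT As3+ peaks was 38.9%, and with summits within 200 bp it was 50%. At UHRF1 1 pair overlapped by 10 bp, with summits 825 bp apart. By the 1 bp rule, 12 of 14 promoter peaks of WT As3+ were shared and 2 of 4 others. Over the whole list, 77.4% of peaks within 1 kb of a protein-coding TSS and 34.4% of the others were shared. Among Nrf2 KO control peaks 11 of 20 promoter peaks were shared and 2 of 29 others, against 46.5% and 10.2% of the whole list. The whole-list split takes a TSS of any protein-coding gene, while that of the 8 genes takes only the gene's own TSS. The peaks of the TDG window next to UQCC6 thus count among the others here. Joined across libraries, the peaks formed 53 places: 13 in both lists, 4 in WT As3+ alone and 36 in Nrf2 KO control alone. Of these last 36, 27 lay more than 1 kb from any TSS of the gene. The 4 in WT As3+ alone were the weak DNMT3A peaks in intron 1 and exon 6, the TET2 peak at 755 bp, and the TDG peak at 9074 bp next to UQCC6.

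Shared peaks had the higher folds by their medians. In WT As3+ the median fold at the 8 genes was 5.67 for 14 shared and 4.17 for 4 unshared peaks, and over the whole list it was 5.10 and 4.52. In Nrf2 KO control it was 6.75 for 13 shared and 4.52 for 36 unshared peaks, with 5.48 and 4.57 over the whole list. The fold was higher in WT As3+ for 5 of the 14 shared pairs and higher in Nrf2 KO control for 9. The background was higher in WT As3+ in 14 of 14 pairs, and in 13 of 14 pairs the fragment intervals overlapped. Backgrounds were not adjusted for library depth, so the 14 pairs are not separate observations of that difference. The summits of a pair were a median of 128.5 bp apart.

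**Figure D3:**
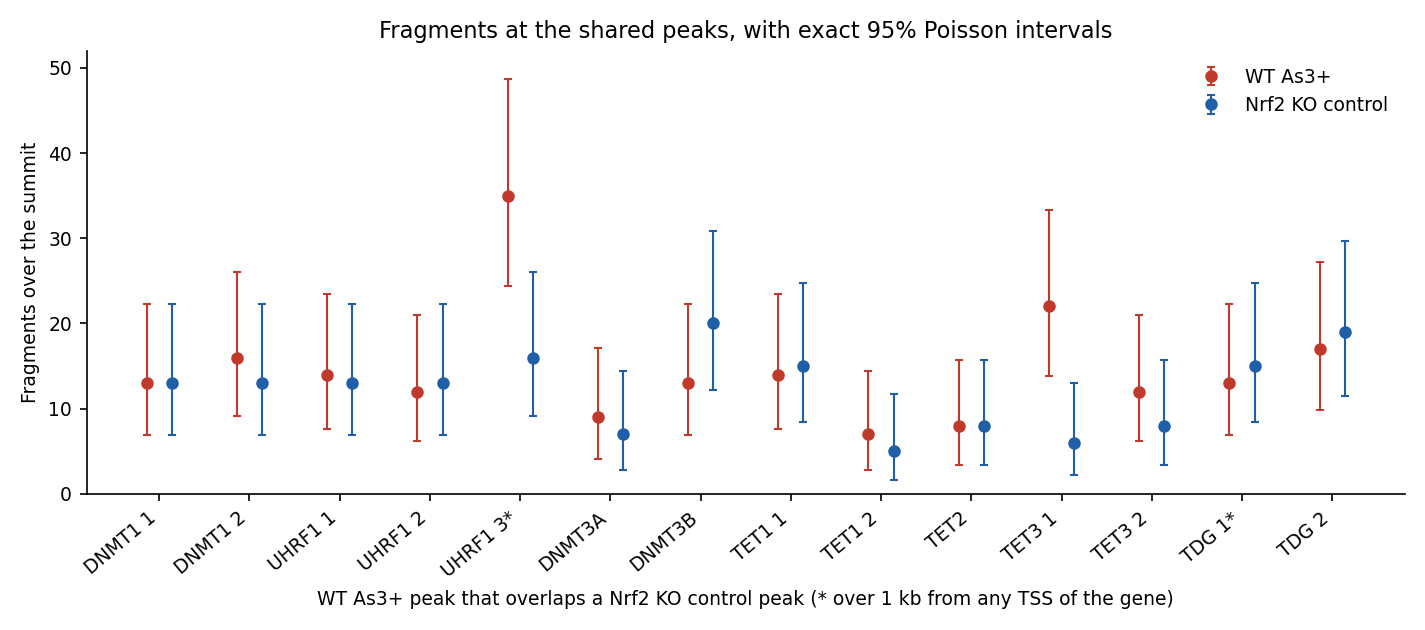
Points show the fragments over the summit for the 14 WT As3+ peaks (red) that overlap a Nrf2 KO control peak (blue), with exact 95% Poisson intervals, not adjusted for library depth. UHRF1 1 and UHRF1 2 face the same Nrf2 KO control peak. The intervals overlap for 13 of 14 pairs, and the first TET3 pair, with 22 and 6 fragments, is the one that does not.

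The peaks were read against what the short lists could have held. At its lowest background a WT control peak needed 10 fragments and a fold of 3.79, and a Nrf2 KO As3+ peak 9 fragments and a fold of 3.79. Of the 18 WT As3+ peaks, 17 had a fold at or above these, and they covered all 8 genes. Of the 49 Nrf2 KO control peaks, 42 did, again over all 8 genes. A site with an equal fold and the lowest background would thus have been listed for all 8 genes, but the background of the short libraries at these sites is not in the lists. WT As3+ peaks at the 8 genes had a median fold of 5.38 (3.71 to 11.0), against 4.72 for the whole list. In Nrf2 KO control the median was 4.69 (3.0 to 9.89), the same as the 4.69 of the whole list. A −log10 q of at least 5 was reached by 10 of 18 WT As3+ peaks (55.6%, 30.8 to 78.5), against 31.9% of the list, and by 13 of 49 Nrf2 KO control peaks (26.5%, 14.9 to 41.1), against 21.1%. The peaks nearest to the windows from outside were one of fold 4.02, 350 bp beyond the DNMT1 window in Nrf2 KO control, and one of fold 4.18, 3750 bp beyond the TET3 window in WT As3+.

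**Figure D4:**
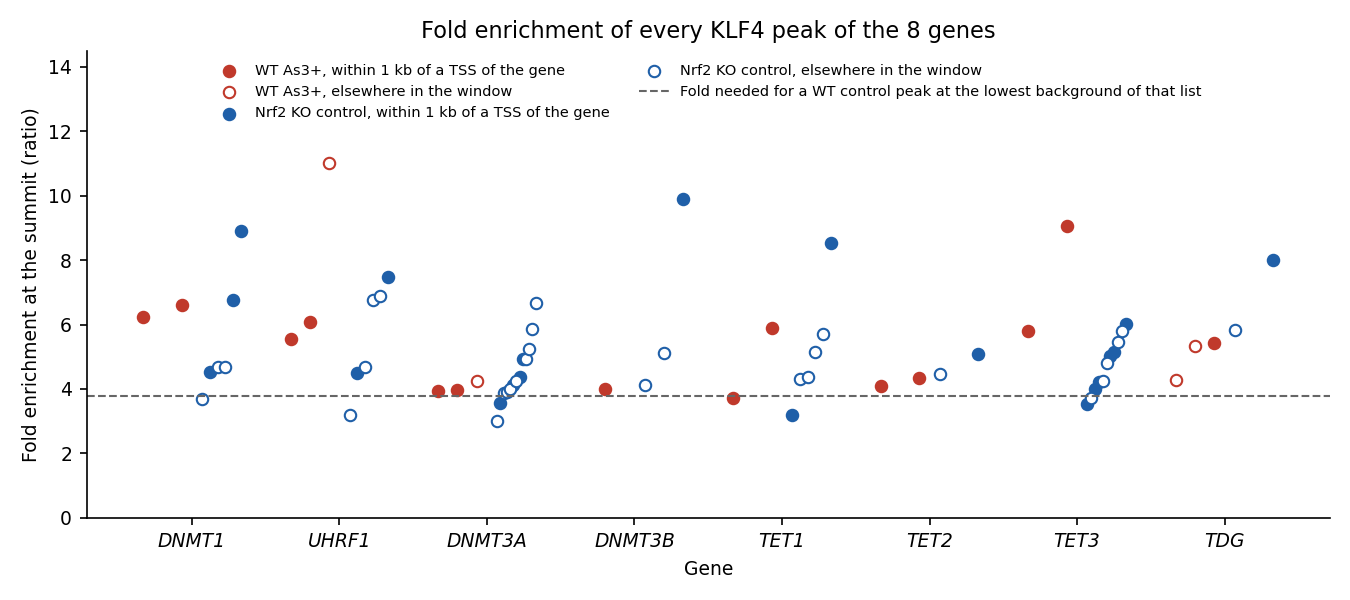
Each point is the fold enrichment of 1 KLF4 peak at the 8 genes in WT As3+ (red) or Nrf2 KO control (blue), filled within 1 kb of a TSS of the gene and open elsewhere. The dashed line at 3.79 is the fold a WT control peak needed at the lowest background of its list, and 17 of 18 red and 42 of 49 blue points lie at or above it, with UHRF1 at 11.0, DNMT3B at 9.89 and TET3 at 9.05 the highest.

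Of the intervals given here for words under the summits, only that of the CG run in WT As3+ lay above the share of its whole list. In 200 bp around the summit, CCACACCC or CCACGCCC was found in 1 of 18 WT As3+ windows (5.56%, 0.141 to 27.3), against 10.3% of the whole list, and in 2 of 49 Nrf2 KO control windows (4.08%, 0.498 to 14.0), against 9.27%. With CCCCACCC and CCCCGCCC added, the wider set was found in 6 of 18 windows (33.3%), against 31.2%, and in 15 of 49 (30.6%), against 24.4%. Around protein-coding TSS the narrow words were found in 5.98% and the wider set in 34.8% of windows. The CG run was found in 6 of 18 WT As3+ windows (33.3%, 13.3 to 59.0), against 10.9% of the list and 19.9% of TSS windows, and in 3 of 49 Nrf2 KO control windows, against 6.74%. That interval includes the share of TSS windows, and 14 of these 18 peaks are at promoters. The AP-1 words were in 0 of 18 and 2 of 49 windows, against 4.33% and 2.54%, and the antioxidant response element core was in 3 of 18 and 1 of 49, against 9.36% and 9.17%. Median GC content was 67.8% for the WT As3+ windows of the 8 genes and 64.5% for the list, and 62.0% and 61.5% for Nrf2 KO control.

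The RefSeq promoter table gave 19 promoters of 300 bases for the 8 genes, all of which matched by symbol. WT As3+ peaks overlapped 7 of 19, against 26.6% of 34943 promoters, and Nrf2 KO control peaks 10 of 19, against 35.4%. These belonged to UHRF1, DNMT3A, TET1, TET3 and TDG in both lists, and the other lists overlapped 0 of 19. Among the 19, DNMT3B has a start at chr20:32779852 and not its canonical start at chr20:32762385. The promoter peaks of DNMT1, DNMT3B and TET2 described above lay outside the entries for these genes. No overlap here thus does not mean that these genes lack a promoter peak. The narrow KLF words were in 3 of 19, 1 of DNMT1 and 2 of UHRF1, against 8.05% of all promoters, and the CG run in 5 of 19, against 16.4%. Several of the 19 overlap each other, so they are not independent.

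The wider pathway was read against all protein-coding genes, with no test of the difference. Among 44 other genes of DNA methylation and its removal, 1 had a peak in WT control (2.27%), 33 in WT As3+ (75.0%), 37 in Nrf2 KO control (84.1%) and 0 in Nrf2 KO As3+ cells. The shares of all protein-coding genes were 2.51%, 66.5%, 81.0% and 0.439% in the same order. The windows of the 44 genes held 3.88 peaks per 100 kb in WT As3+, against 1.93 for all genes, and 6.37 in Nrf2 KO control, against 4.50. CXXC5 alone, with a window of 48.6 kb, held 16 of their 92 WT As3+ peaks and 21 of their 151 Nrf2 KO control peaks. The densities were not adjusted for window length. The 1 gene in WT control was MBD1, a methyl-CpG reader, and that peak (fold 3.97, 26 fragments) lay 58 bp from the TSS of CXXC1, a neighbour that binds unmethylated CpG.

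By role, all 5 genes of methyl donor supply and all 4 partners of de novo methylation had a peak in both long lists, as did 64.0% of all protein-coding genes. MAT2A, which makes S-adenosylmethionine, had a fold of 8.30 with 22 fragments in WT As3+. NSD1, a histone methyltransferase whose mark recruits DNMT3A, had a fold of 6.27 with 13 fragments. Over all protein-coding genes, 66.5% had a peak in WT As3+, 81.0% in Nrf2 KO control and 64.0% in both. Of the 44 genes, 32 had one in both (72.7%). A peak in 1 long list alone was thus also found at genes outside these roles, and no role was tested. Of 8 methyl-CpG readers, 6 had a peak in WT As3+ and 8 in Nrf2 KO control, MBD3 and ZBTB33 in the latter alone. By −log10 p the highest WT As3+ peak of the readers was at MBD4, also a glycosylase, with a fold of 5.38 and 22 fragments, while MBD1 had the highest fold, 5.77. Of 7 maintenance partners, 4 had a peak in WT As3+ and 5 in Nrf2 KO control, with HELLS, a chromatin remodeller, in the latter alone. The peak of LIG1, the ligase of Okazaki fragments, had a fold of 10.7 with 27 fragments, 122 bp upstream of its TSS and 33 bp from that of ZSWIM9.

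Of 10 base excision repair genes, 6 had a peak in WT As3+ and 8 in Nrf2 KO control, with XRCC1 and LIG3 in the latter alone. The shares of all protein-coding genes, for this and the next roles, were 66.5% and 81.0%. NEIL1, a glycosylase for oxidized bases, had the highest in WT As3+ by −log10 p, with a fold of 7.37 and 18 fragments. Of 6 TET partners and enzymes of 2-oxoglutarate supply, 5 had a peak in WT As3+ and 4 in Nrf2 KO control, with OGT, the O-GlcNAc transferase that binds TET proteins, in WT As3+ alone. CXXC5, a CpG-binding protein, held the most peaks of the 44 genes, with 16 in WT As3+ and 21 in Nrf2 KO control, and its highest WT As3+ peak by −log10 p had a fold of 8.75 with 33 fragments. Of 4 other demethylation factors, the 3 GADD45 genes had a peak in both lists, of which GADD45A had the highest in WT As3+ by −log10 p, with a fold of 6.32 and 17 fragments, and GADD45G the highest fold, 6.83. No peak was listed in any library at USP7 and DPPA3, regulators of DNMT1 and UHRF1, at the repair genes APEX1 and POLB, or at CXXC4.

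**Figure D5:**
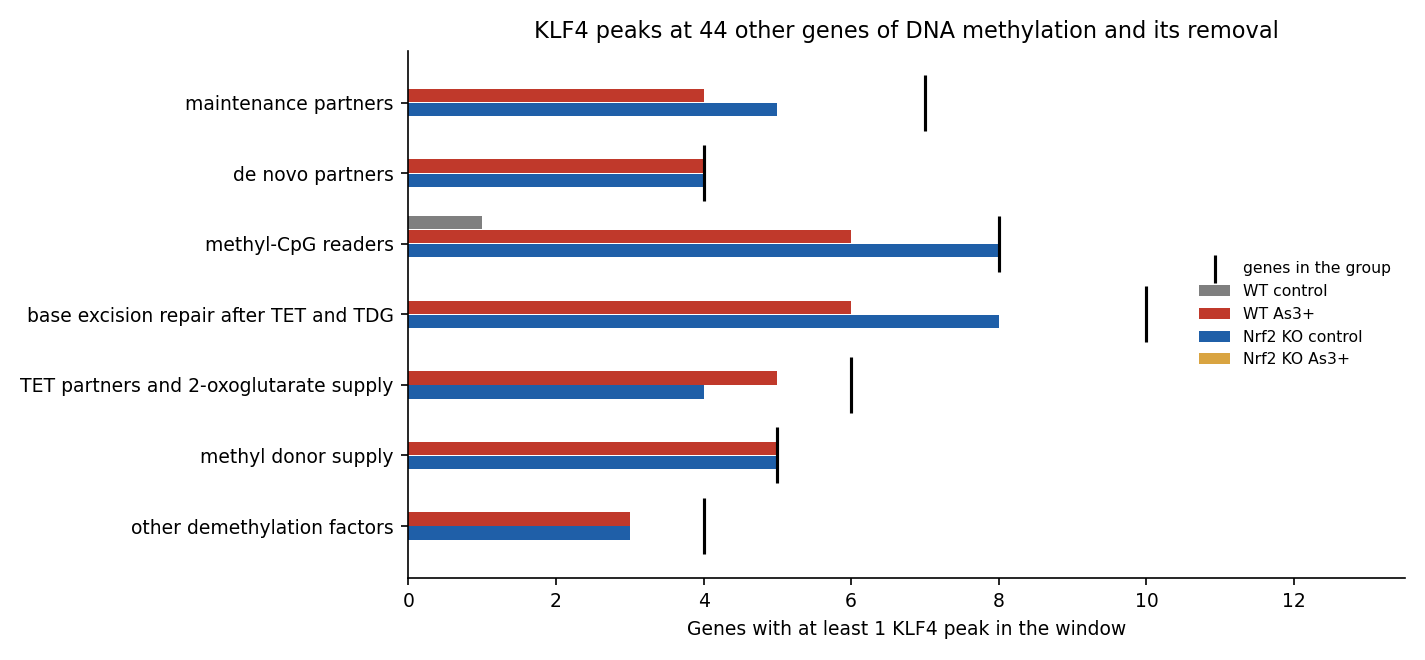
Bars show how many of the 44 other genes had at least 1 KLF4 peak in their window, by role and library, and the black mark gives the number of genes in each role. WT As3+ (red) and Nrf2 KO control (blue) reach 33 and 37 genes in all, WT control (grey) reaches 1 and Nrf2 KO As3+ none.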

How the data were processed

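KLF4 ChIP-seq of 4 BEAS-2B libraries was analysed, 1 per condition, as grouped by the sample labels. H3K4me1, H3K27Ac and input libraries were not used here. The authors aligned 75-nt reads with BWA to GRCh38/hg38, and the submitters' processing notes name bcl2fastq 2.17. The peak caller and its settings are not given in the sources used here. The authors deposited 1 peak list per library, whose summits carry a fold enrichment (a ratio to local background) and its significance as −log10 of p and of q. The score column they deposited equals the −log10 q multiplied by 10 and rounded down. No read totals were used, so depth is known only through the fragments at each peak, with a median of 25 in WT control, 10 in WT As3+, 7 in Nrf2 KO control and 19 in Nrf2 KO As3+ cells.

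Fragments n and background λ were solved from fold = (n + 1)/(λ + 1) and p as a Poisson upper tail. The highest misfit in −log10 p was 0.000405. Genes, TSS and canonical transcripts came from GENCODE 44. Summits were assigned to windows from 10 kb upstream of a gene to 2 kb past its end. Promoter peaks had a summit within 1 kb of an annotated TSS. Shared peaks overlapped by at least 1 bp. Shares carry exact Clopper-Pearson and fragments exact Poisson intervals, both at 95%. With 1 library per condition no test between conditions was run. The fragment, window, TSS and overlap steps were tested on simulated data. Python 3.11.15, pandas 2.3.3, scipy 1.17.1 and pysam 0.24.0 were used.

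The members and lists were chosen with earlier results of these data known. The text names the 8 genes and NFE2L2. Of the wider list it names each gene with a peak in a short list, each with none in either long list, and in each role the gene with the WT As3+ peak of highest −log10 p. The result for 1 gene under this rule is not reported here. Genes of the wider list in 1 long list alone, and neighbours nearer to a peak, are named beside them. The former were chosen after their values were seen. Alternatives covered stricter −log10 q, other windows, equal list lengths, other TSS, other overlap rules and other words. The canonical TSS for promoters, and its use in place of the window, were added after the data were seen.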

Additional observations from a re-analysis of the deposited data

Results flagged for a closer look

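As3+ went with opposite differences in WT and Nrf2 KO cells, in every count taken at these genes over all listed peaks. With −log10 q of at least 5 this did not hold at every gene. WT As3+ then had 0 peaks at DNMT3A, DNMT3B and TET2, and Nrf2 KO control 0 at TET2. Both short lists held 0 peaks at all 8 genes, so each sign below for these genes follows from those zeros. The difference was not tested, since each condition has 1 library. The signs rest on the sample labels, which the lists cannot check for the Nrf2 KO libraries, and on peak lists for which any sampling of tags before calling is not given in the sources used here. As3+ minus control, the number of the 8 genes with a peak differed by 8 in WT and by -8 in Nrf2 KO cells, as did the number with a promoter peak (8 and -8). Peaks in their windows differed by 18 in WT and by -49 in Nrf2 KO cells. By gene the differences were 2 and -6 at DNMT1, 3 and -6 at UHRF1, 3 and -13 at DNMT3A, 1 and -3 at DNMT3B, 2 and -6 at TET1, 2 and -2 at TET2, 2 and -11 at TET3, and 3 and -2 at TDG. The 44 genes of the wider list showed the same signs, with 32 and -37 genes, and so did all protein-coding genes, with 12811 and -16138.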

How the results depend on the processing

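Of 122 recomputed values, 99 stayed within 1.5 times the reported count or within its interval, and 23 did not. The counts of 0 for the 8 genes in WT control and Nrf2 KO As3+ cells stayed at 0 under all alternatives. None of the alternatives could have raised them, since the nearest summit of either short list lay 22.9 kb outside a window. These unchanged zeros are counted among the 99 and are no sign of stability. With −log10 q of at least 5, WT As3+ kept 5 genes with a peak, 5 with a promoter peak and 10 peaks. Nrf2 KO control kept 13 peaks. Protein-coding genes with a peak then numbered 297 in WT control, 7653 in WT As3+, 10213 in Nrf2 KO control and 39 in Nrf2 KO As3+ cells. With lists cut to as many of the strongest peaks as WT control holds, 1 gene and 1 peak were left in WT As3+ and also in Nrf2 KO control. The wider list then had 4 and 3 genes, and all protein-coding genes 699 and 855. With windows from 2 kb upstream the wider list had 0 genes in WT control. With a peak required within 1 kb of the canonical TSS in place of the window, which changes both place and TSS, protein-coding genes numbered 139 in WT control and 36 in Nrf2 KO As3+ cells. Shared WT As3+ peaks fell to 38.9% with reciprocal overlap of at least 50% and to 50% with summits within 200 bp. The wider KLF words raised the share of windows with a word to 33.3% in WT As3+ and 30.6% in Nrf2 KO control. The cause of these shifts was not tested beyond the smaller number of peaks or stricter overlap that each alternative sets. No paired analysis was possible because each condition has 1 library. At 5 to 9 fragments a peak's fold is loosely known, so weak peaks missing from a list are not shown to be absent.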
